A study of Mus musculus with 16 samples.

Results

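The BCL-2 family genes described here were 10 genes chosen by name: the anti-apoptotic Bcl2, Bcl2l1 and Mcl1, the effectors Bax and Bak1, and the BH3-only genes Bid, Bad, Bbc3, Pmaip1 and Bcl2l11. They were 10 of the 49585 genes in the count table, and all 10 were among the 12559 genes that passed the filter on low counts. RNA sequencing was carried out on 16 cultures of mouse small intestinal organoids, self-renewing epithelial structures grown from crypts in Matrigel. The 4 groups of 4 cultures were Atg16l1 fl/fl organoids, left untreated or given recombinant murine IL-22 at 10 ng/ml for 24 h, and Atg16l1 ΔIEC organoids, left untreated or given the same dose. Both genotypes carried the floxed Atg16l1 allele on a C57BL/6 background, and ΔIEC mice in addition carried Cre recombinase driven by villin, a promoter of intestinal epithelial cells. Mice were used at 8 to 12 weeks of age, and no age was given for the donors of these lines. Each genotype was represented by 2 organoid lines, each cultured in duplicate with and without IL-22, so that replicates 1 and 2 belong to the first line of a genotype and replicates 3 and 4 to its second. Cultures of 1 line are not separate animals, so p-values measure the spread between cultures, and every difference between genotypes rests on 2 lines against 2.

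Proteins of the BCL-2 family decide whether the outer mitochondrial membrane is opened during apoptosis. BAX and BAK oligomerize in that membrane and release cytochrome c, the anti-apoptotic proteins BCL-2, BCL-XL and MCL-1 hold them and their activators in check, and the BH3-only proteins either activate BAX and BAK directly or occupy the anti-apoptotic proteins. In the intestinal epithelium, this family is known for its part in the turnover of crypt cells and in their death after DNA damage. The comparisons address how transcript levels of the family responded to IL-22, a cytokine of mucosal defence that signals through STAT3, with and without the autophagy gene Atg16l1. Levels of mRNA do not show protein amount, phosphorylation, cleavage or the pairing of these proteins, which set much of their activity.

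Gene counts summed to 2135000 in the shallowest and 5574860 in the deepest culture (median 3499277), with 16363 to 19649 genes detected. Atg16l1 was counted at 31.6 to 51.8 CPM (counts per 1000000 counts, on library sizes scaled by TMM) in the 8 fl/fl cultures and at 0.289 to 5.96 CPM in the 8 ΔIEC cultures, so every library matched its labelled genotype. All 7 epithelial markers were counted, at a summed 5761 to 10626 CPM per culture. The 6 immune markers summed to 2.49 to 9.11 CPM with Cd3e at 0 in every culture, and the 6 stromal and endothelial markers to 1.62 to 6.40 CPM. Summed CPM of 6 stem cell markers fell from 1717 to 2137 in untreated to 913 to 1022 in IL-22–treated fl/fl cultures and from 2309 to 2566 to 986 to 1326 in ΔIEC cultures. Summed CPM of 7 enterocyte markers went from 2892 to 3309 to 820.4 to 1272 in fl/fl and from 3025 to 3651 to 962 to 1521 in ΔIEC cultures. In such bulk samples, fewer cells of a type and less RNA per cell cannot be told apart.

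Sequences upstream of Mcl1, Bax and Bcl2, among the members whose levels differed between groups, are shown first. RefSeq promoter windows (GRCm38.p6) were given for 9 of the 10 members, as 15 windows of 250 bases before an annotated start. No window was given for Pmaip1, so it was not searched. The Bak1 window lay wholly within annotated exons and is not printed. Windows without annotated exon bases are printed for Mcl1, which was higher with IL-22 in both genotypes, for Bax, which differed between genotypes under IL-22, and for Bcl2, which was lower with IL-22 in ΔIEC organoids. Capitals mark GGGCGG on either strand, the GC box bound by SP1-type factors, and each sequence is written 5′ to 3′ on the strand of the gene.
Mcl1, chr3:95658471-95658720, plus strand: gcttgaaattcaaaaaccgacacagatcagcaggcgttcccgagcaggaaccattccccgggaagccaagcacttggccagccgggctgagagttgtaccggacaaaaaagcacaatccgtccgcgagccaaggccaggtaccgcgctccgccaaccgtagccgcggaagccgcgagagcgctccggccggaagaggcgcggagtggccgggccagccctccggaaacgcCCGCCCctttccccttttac
Bax, chr7:45466899-45467148, minus strand: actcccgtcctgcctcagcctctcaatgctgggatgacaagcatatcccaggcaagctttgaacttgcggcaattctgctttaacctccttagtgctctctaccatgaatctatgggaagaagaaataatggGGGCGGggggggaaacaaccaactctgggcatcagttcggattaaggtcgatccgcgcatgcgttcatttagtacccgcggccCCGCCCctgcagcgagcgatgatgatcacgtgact
Bcl2, chr1:106714291-106714540, minus strand: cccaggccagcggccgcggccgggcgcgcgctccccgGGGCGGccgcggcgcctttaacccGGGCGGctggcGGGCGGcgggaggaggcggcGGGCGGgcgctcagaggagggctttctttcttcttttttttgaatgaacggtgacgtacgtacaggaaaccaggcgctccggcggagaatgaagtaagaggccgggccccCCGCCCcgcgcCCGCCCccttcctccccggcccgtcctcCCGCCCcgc
The spaced palindrome TTCNNNGAA, the sequence recognised by STAT factors, was searched on both strands and was found in 0 of the 15 windows, and in 7.02% of 32851 mouse windows of the same length. GGGCGG was searched after the values were seen and was found in 10 of the 15 windows, and in 32.7% of all windows. It was found for 7 of the 9 members with a window. Some members gave several windows, and windows of Bbc3 overlapped in part, so these shares cannot show an excess in the members. GGGCGG occurred 1 time in the Mcl1 window, 2 times in that of Bax and 7 times in that of Bcl2. The Bcl2 window had a GC content of 74.8% against 64.4% for Mcl1 and 54.0% for Bax. These matches describe the letters of 250 bases and do not show binding.

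Levels were compared between genes as CPM per kilobase of annotated exon. In untreated fl/fl organoids, Mcl1 was the most abundant member at 47.2 ± 1.90 CPM per kb (SD, n = 4, as for all means given here). Pmaip1 (NOXA) followed at 37.1 ± 6.71, Bak1 at 33.9 ± 2.99 and Bax at 30.8 ± 1.45 CPM per kb. The ranges of these last members overlapped one another, whereas every Mcl1 value lay above every value of the other 9 members. A second tier was formed by Bcl2l1 (BCL-XL) at 8.96 ± 1.64, Bad at 8.32 ± 1.60, Bid at 6.87 ± 1.28 and Bbc3 (PUMA) at 6.63 ± 0.456 CPM per kb. In this tier neighbours in the order overlapped, whereas every Bcl2l1 value lay above every Bbc3 value. Bcl2l11 (BIM) lay below them at 3.06 ± 0.335 CPM per kb, and Bcl2 was lowest at 0.640 ± 0.107. Among the anti-apoptotic members Bcl2, Bcl2l1 and Mcl1, Mcl1 was thus the most and Bcl2 the least abundant transcript, in this and in the other 3 groups. With IL-22, the levels of Pmaip1 (66.0 ± 1.67) and Mcl1 (65.6 ± 3.17 CPM per kb) overlapped in fl/fl cultures, whereas in IL-22–treated ΔIEC cultures Mcl1 stood at 68.6 ± 2.79, Bak1 at 54.6 ± 4.17, Pmaip1 at 44.8 ± 11.9 and Bax at 38.5 ± 3.26 CPM per kb. Lengths are those of all annotated exons of a gene, so a gene that uses short isoforms is placed too low.

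**Figure D1:**
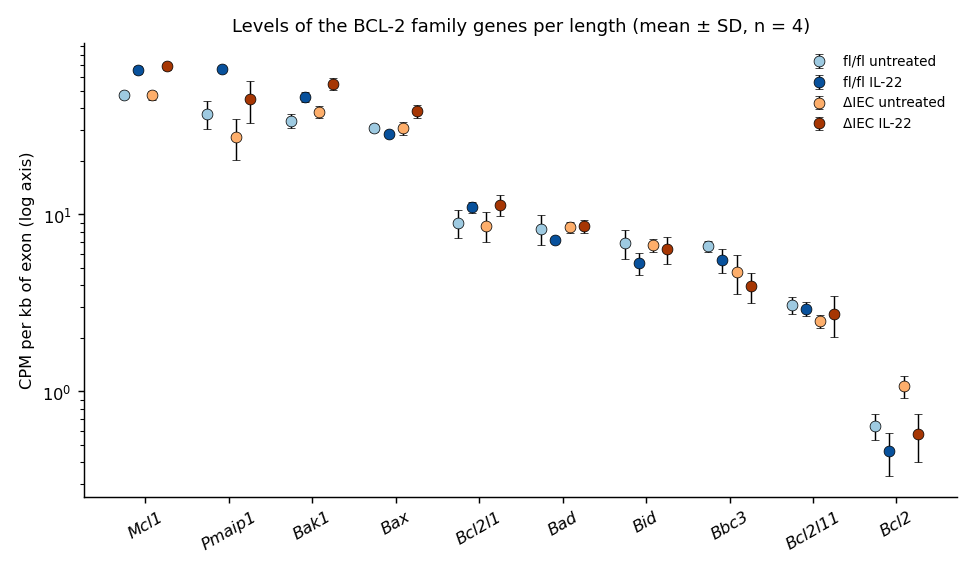
Mean level of each BCL-2 family gene in the 4 groups, as CPM per kb of exon on a log axis; bars are SD over 4 cultures. Mcl1, Pmaip1, Bak1 and Bax stood above the other 6 members in every group, and Bcl2 was lowest in every group.

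In fl/fl organoids, 3 of the 10 members rose with IL-22 and none fell: Mcl1 rose 1.39-fold, Bak1 1.36-fold and Pmaip1 1.78-fold. Calls are at an adjusted p under 0.01, from edgeR's quasi-likelihood test with Benjamini-Hochberg adjustment over all 12559 genes tested. In this comparison 20.8% of all genes were called, 10.6% as higher and 10.2% as lower. The median log2 fold change of the 10 members was -0.09, beside -0.05 over all genes tested.

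Mcl1 (ENSMUSG00000038612.16, chr3:95658788-95663176, plus strand), the anti-apoptotic member with a short-lived protein, was counted at 161, 154, 160.0 and 169.9 CPM in untreated fl/fl replicates 1 to 4 and at 219.7, 221, 216 and 240.0 CPM in IL-22–treated replicates 1 to 4. Every treated culture lay above every untreated culture, and the difference was 0.47 on the log2 scale (SE 0.07, 95% interval 0.34 to 0.61, adjusted p = 2.07e-05). It was similar in both lines, at 0.48 in the first and 0.46 in the second.

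Bak1 (ENSMUSG00000057789.13, chr17:27019810-27029009, minus strand), 1 of the 2 effectors, was counted at 89.4, 84.5, 72.5 and 79.7 CPM in untreated fl/fl cultures, and at 112, 119, 102 and 111 CPM in treated ones. The groups did not overlap, and the log2 fold change was 0.44 (SE 0.09, adjusted p = 0.000558). Bak1 shares 437 bp of exon with Ggnbp1 on the opposite strand, which rose as well, from 44.2 ± 7.80 to 60.4 ± 4.96 CPM (0.45 on the log2 scale, adjusted p = 0.00722). The study's methods name a stranded protocol, but the labels name a different kit, and the strand setting of the counting was not given. Whether reads of the shared stretch were counted for either gene is therefore not known.

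Pmaip1 (ENSMUSG00000024521.7, chr18:66458533-66465565, plus strand), whose BH3-only product NOXA binds MCL-1, had the largest log2 fold change of the members in fl/fl organoids, at 0.83 (SE 0.17, adjusted p = 0.00104). It was counted at 112, 121, 92.0 and 80.5 CPM without and at 184, 179, 184 and 174 CPM with IL-22. The untreated cultures of the second line were the lowest, and the treated cultures of both lines lay close together, so that the difference was 0.64 in the first line and 1.05 in the second.

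The other 7 members did not pass the test in fl/fl organoids. Bcl2l1 (ENSMUSG00000007659.18, chr2:152780668-152831728), which encodes BCL-XL, was counted at 41.1 ± 7.51 CPM without and at 50.5 ± 3.59 with the cytokine (a log2 difference of 0.28, adjusted p = 0.127), and passed with the organoid line as a block (0.30, adjusted p = 0.00929). Bcl2 (ENSMUSG00000057329.7, chr1:106538178-106714274) stood at 5.86 ± 0.984 and 4.20 ± 1.16 CPM (-0.54, adjusted p = 0.125), on 13 to 27 reads per culture. Bax (ENSMUSG00000003873.11, chr7:45461697-45466898) had a log2 fold change of -0.12 with a 95% interval from -0.30 to 0.06. Among the BH3-only genes, Bid, the substrate that caspase-8 cleaves, differed by -0.40 (adjusted p = 0.0532), Bbc3 by -0.28, Bad by -0.24 and Bcl2l11 by -0.06 on the log2 scale. Cultures of the 2 groups were separate for 3 members, the 3 that were called, and for 30.9% of all genes. Leaving out each culture or line in turn kept Mcl1 past the threshold 20 of 20 times, whereas without the second fl/fl line adjusted p was 0.0167 for Bak1 and 0.0650 for Pmaip1. Summing the cultures of a line, which leaves 2 values a group, called 0 members, with Mcl1 at an adjusted p of 0.0135.

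In ΔIEC organoids, 5 of the 10 members passed the test with IL-22. Mcl1 rose 1.45-fold, Bak1 1.44-fold, Pmaip1 1.65-fold and Bax 1.26-fold, and Bcl2 fell to 0.54 of its untreated level. Of all genes, 17.5% were called in this comparison, 9.83% as higher and 7.65% as lower. The members' median log2 fold change was 0.24, and that of all genes -0.01.

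Mcl1 was counted at 159, 152, 175 and 161 CPM in untreated and at 245, 228, 225 and 239.6 CPM in IL-22–treated ΔIEC cultures, without overlap (log2 fold change 0.54, SE 0.07, adjusted p = 4.88e-06). Bak1 went from 84.2, 97.2, 97.3 and 87.2 CPM to 117, 132, 141 and 134 CPM, also without overlap (0.52, SE 0.09, adjusted p = 9.74e-05). Ggnbp1, which overlaps it, rose by 0.62 on the log2 scale (adjusted p = 0.000621).

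Bax, whose product moves from the cytosol to mitochondria when activated, was counted at 49.0, 46.0, 53.5 and 44.4 CPM in untreated and at 62.8, 66.5, 54.4 and 59.3 CPM in IL-22–treated ΔIEC cultures. The lowest treated culture was barely above the highest untreated one, and both were replicate 3, of the second line. The log2 fold change was 0.33 (SE 0.09, adjusted p = 0.00578), with 0.44 in the first and 0.22 in the second line.

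Pmaip1 was counted at 51.4, 67.9, 85.2 and 95.9 CPM in untreated and at 118, 86.1, 165 and 119.8 CPM in IL-22–treated ΔIEC cultures. These groups overlapped, since treated replicate 2 lay below untreated replicate 4, and within each line both treated cultures lay above both untreated ones. The log2 fold change was 0.72 (SE 0.18, adjusted p = 0.00484).

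Bcl2 was counted at 11.1, 8.86, 8.44 and 10.8 CPM in untreated and at 5.67, 6.82, 3.02 and 5.50 CPM in IL-22–treated ΔIEC cultures. All treated cultures were below all untreated cultures, on 10 to 47 reads per culture, and the log2 fold change was -0.90 (SE 0.24, 95% interval -1.40 to -0.40, adjusted p = 0.00814). An antisense gene that shares 558 bp of exon with Bcl2 had 0 to 8 reads in any culture.

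Of the 5 members that did not pass, Bcl2l1 was counted at 39.5 ± 7.58 without and 52.0 ± 6.88 CPM with the cytokine, a log2 difference of 0.43 (adjusted p = 0.0291). It passed with the line as a block (0.41, adjusted p = 0.00111). Within each line both treated cultures were higher than both untreated ones, with differences of 0.47 and 0.33. Bcl2l11 differed by 0.15, Bad by 0.01, Bid by -0.09 and Bbc3 by -0.23 on the log2 scale, with 95% intervals that all contained 0. Groups were separate for 4 members, Mcl1, Bak1 and Bax upward and Bcl2 downward, and for 27.3% of all genes.

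The calls on Mcl1 held in 20 of 20 fits that left out a culture or line, and that on Bak1 in 19, the exception being the second ΔIEC line (adjusted p = 0.0302). Bax was no longer called without untreated or IL-22–treated ΔIEC replicate 1, 2 or 4 or without any of the 4 lines (adjusted p up to 0.264, the highest without the first ΔIEC line). Bcl2 was no longer called without any of the ΔIEC cultures other than IL-22–treated replicate 2, without either ΔIEC line, or without untreated fl/fl replicate 2 or 3 (adjusted p up to 0.176, the highest without the second ΔIEC line). Pmaip1 was no longer called without untreated ΔIEC replicate 1 or 2, IL-22–treated ΔIEC replicate 3 or 4, or either ΔIEC line (0.0113 to 0.0259). With DESeq2, Mcl1, Bak1 and Pmaip1 were called, and Bax (adjusted p = 0.0150) and Bcl2 (adjusted p = 0.0162) were not. In edgeR without a filter on low counts, Bax (0.0361) and Bcl2 (0.0119) were not called either, and Bcl2l1 was (0.00557). The fit with limma-voom kept the 5 calls and added Bcl2l1 (adjusted p = 0.00261). A fit of the ΔIEC cultures alone called Mcl1 and Bak1, with adjusted p of 0.0221 for Bax, 0.0144 for Bcl2 and 0.0138 for Pmaip1. Summing the cultures of a line called Mcl1, and left Bak1 at 0.0158, Bcl2 at 0.0685, Bax at 0.0739 and Pmaip1 at 0.0917. Stem cell and enterocyte marker sums moved with IL-22 in both genotypes, by the ranges given above: 3 of 6 stem cell and 6 of 7 enterocyte markers were called lower in fl/fl and 5 of 6 and 4 of 7 in ΔIEC organoids. Of all genes tested, 10.2% in fl/fl and 7.65% in ΔIEC organoids were called lower with IL-22. The part of these markers in the changes of the members was not tested.

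**Figure D2:**
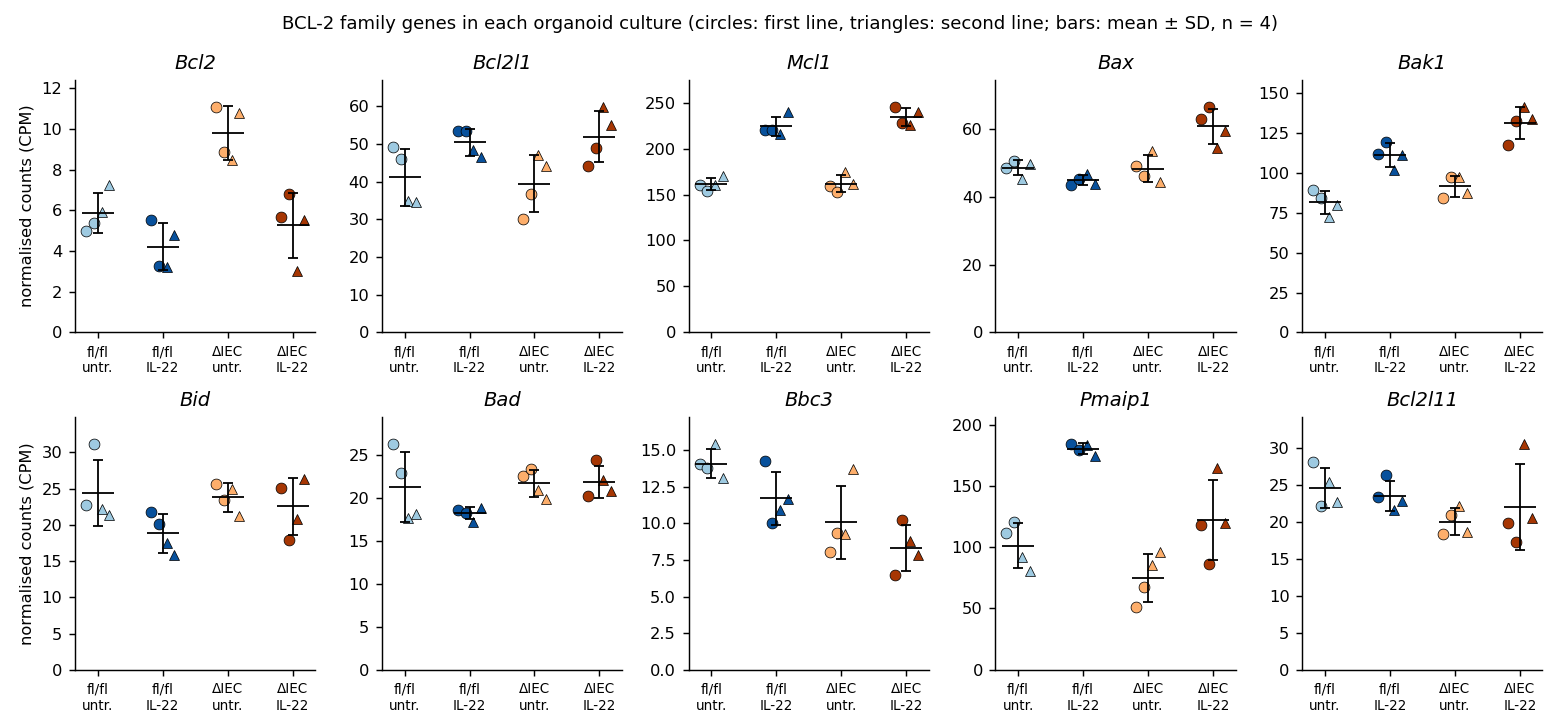
Normalised counts (CPM) of the 10 BCL-2 family genes in each culture of the 4 groups; circles are the first and triangles the second line of a genotype, and bars are mean ± SD, n = 4. All IL-22–treated cultures lay above all untreated cultures for Mcl1 and Bak1 in both genotypes, and Bax was higher with IL-22 in ΔIEC cultures, at 54.4 to 66.5 CPM against 44.4 to 53.5 CPM.

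Whether fl/fl and ΔIEC organoids differed in their response was tested with an interaction term. No member passed in edgeR (0 of 10), where 0.0159% of all genes passed, 0.00796% in each direction, and 1 member and 912 of the 12559 genes had an unadjusted p under 0.05. That member was Bax, with a response larger by 0.45 on the log2 scale in ΔIEC organoids (SE 0.12, 95% interval 0.20 to 0.70, unadjusted p = 0.00139 and adjusted p = 0.316 in edgeR's quasi-likelihood test), and 0.46 with the line as a block (adjusted p = 0.0602). The intervals for Mcl1 (-0.13 to 0.26) and Bak1 (-0.17 to 0.34) were narrow, and those for Pmaip1 (-0.63 to 0.42) and Bcl2 (-1.11 to 0.39) were wide. A call in 1 genotype alone, as for Bax and Bcl2, therefore does not show that the responses of the genotypes differed. DESeq2 and limma-voom called 0 members as well, and DESeq2 gave an adjusted p for 3 of the 10 members.

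**Figure D3:**
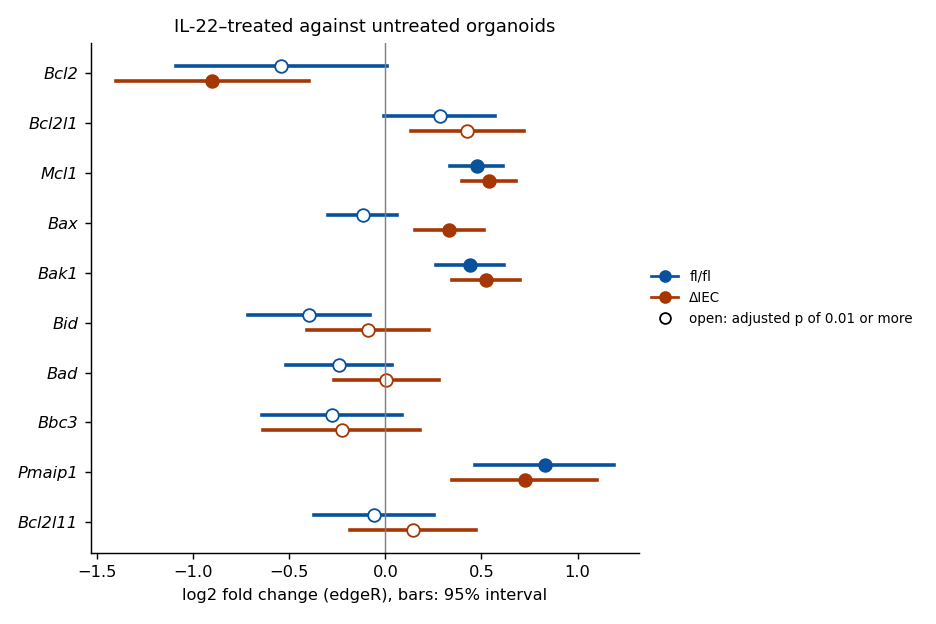
Log2 fold change with IL-22 of each member in fl/fl (blue) and ΔIEC (orange) organoids, from edgeR; bars are 95% intervals, and filled points have an adjusted p under 0.01. Intervals of the genotypes overlap for every member except Bax, from -0.30 to 0.06 in fl/fl and from 0.16 to 0.51 in ΔIEC organoids.

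Without IL-22, none of the 10 members passed the test between ΔIEC and fl/fl organoids. In edgeR 9.76% of all genes were called, 3.78% as higher and 5.98% as lower in ΔIEC organoids, and 3 members had an unadjusted p under 0.05: Bcl2, Bbc3 and Pmaip1. DESeq2 and limma-voom called 0 members as well. The median log2 difference of the members was -0.03, and that of all genes -0.02. This comparison and the responses above share the untreated cultures.

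Bcl2 was counted at 4.97, 5.36, 5.89 and 7.22 CPM in fl/fl cultures, all below the 4 ΔIEC values of 8.44 to 11.1 CPM, and the difference of 0.74 on the log2 scale (SE 0.24) had an adjusted p of 0.0316. Bbc3 (ENSMUSG00000002083.13, chr7:16308393-16318205), the p53-inducible PUMA, was counted at 14.0, 13.8, 15.4 and 13.1 CPM in fl/fl and at 8.02, 9.35, 9.25 and 13.7 CPM in ΔIEC cultures. Only ΔIEC replicate 4 reached the fl/fl range (-0.50, SE 0.18, adjusted p = 0.0556). Pmaip1 differed by -0.46 (SE 0.18, adjusted p = 0.0812), with the lowest values in the first ΔIEC line, and was called without the second ΔIEC line (-0.74, adjusted p = 0.00720).

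Mcl1 was at 161 ± 6.49 CPM in fl/fl and 162 ± 9.50 CPM in ΔIEC organoids, with a 95% interval of the log2 difference from -0.14 to 0.14. The interval for Bax was -0.20 to 0.17 and that for Bak1 -0.02 to 0.34. Bcl2l11 (ENSMUSG00000027381.16, chr2:128126038-128162547) differed by -0.29 (adjusted p = 0.187). Its ΔIEC cultures lay below its fl/fl cultures with TMM scaling and overlapped them with the scaling of DESeq2. Bcl2l1, Bid (ENSMUSG00000004446.12, chr6:120891930-120916853) and Bad (ENSMUSG00000024959.13, chr19:6941861-6951899) differed by -0.09, -0.04 and 0.03 with overlapping cultures. Groups were separate for 2 members, Bcl2 upward and Bcl2l11 downward, and for 23.3% of all genes.

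With IL-22, 1 of the 10 members was called between genotypes: Bax was 1.35-fold higher in ΔIEC organoids. Of all genes, 19.8% were called, 9.91% as higher and 9.84% as lower. In IL-22–treated fl/fl cultures Bax was counted at 43.6, 45.1, 46.7 and 43.7 CPM, all below the lowest IL-22–treated ΔIEC culture of 54.4 CPM. The log2 difference was 0.43 (SE 0.08, adjusted p = 0.000681). It was 0.39 without the first fl/fl line (adjusted p = 0.0140) and 0.34 without the first ΔIEC line (adjusted p = 0.0327), and the other 18 of 20 such fits kept the call. With the cultures of a line summed, so that 2 lines stood against 2, adjusted p was 0.0335 and Bax was not called.

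Pmaip1 was lower in ΔIEC organoids by -0.56 on the log2 scale without passing the test (SE 0.17, adjusted p = 0.0166). Its 4 fl/fl values of 174 to 184 CPM were all above the ΔIEC values of 86.1 to 165 CPM, of which replicate 3 was the highest. It passed with DESeq2 (adjusted p = 0.00958) and limma-voom (0.00901), and in edgeR without IL-22–treated ΔIEC replicate 3 (-0.74, 0.00213), untreated ΔIEC replicate 1 (-0.56, 0.00914) or the second ΔIEC line (-0.85, 0.000981). Bak1 differed by 0.24 (adjusted p = 0.0301) and Bbc3 by -0.45 (adjusted p = 0.0698). Bad, which is regulated by phosphorylation, stood at 18.2 ± 0.702 and 21.9 ± 1.85 CPM, without overlap (0.27, adjusted p = 0.118). The remaining members had log2 differences from -0.09 for Bcl2l11 to 0.38 for Bcl2, and their cultures overlapped. Groups were separate for 3 members, Bax and Bad upward and Pmaip1 downward, and for 29.6% of all genes, and the members' median log2 difference was 0.16 beside 0.01 over all genes.

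Cell type markers also differed between genotypes beside these values. Summed CPM of 6 Paneth cell markers was 5609 to 8098 in untreated fl/fl and 3161 to 4147 in untreated ΔIEC cultures, and 7206 to 9639 and 3890 to 4627 with IL-22. Of these 6 markers, 4 without and 5 with IL-22 were called lower in ΔIEC organoids. Goblet cell markers summed to 2103 to 3319 against 1488 to 1986 CPM without IL-22, and to 2032 to 3034 against 1036 to 1701 CPM with it, and 4 of 6 were called lower in ΔIEC organoids in each. Of 6 stem cell markers, 3 were called higher in untreated ΔIEC organoids, and 3 higher and 1 lower with IL-22. Of 7 enterocyte markers, 1 was higher without and 2 were higher with IL-22, and of 5 tested enteroendocrine markers 1 and 3 were lower. Of all genes tested, 3.78% were called higher and 5.98% lower in untreated ΔIEC organoids, and 9.91% and 9.84% with IL-22. These marker calls rest on 2 lines against 2. Summing the cultures of a line in edgeR left 3 higher and 7 lower genes between untreated genotypes, and 56 and 132 with IL-22. The marker calls under that sum are not given here. The part of these markers in the differences of the members was not tested.

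**Figure D4:**
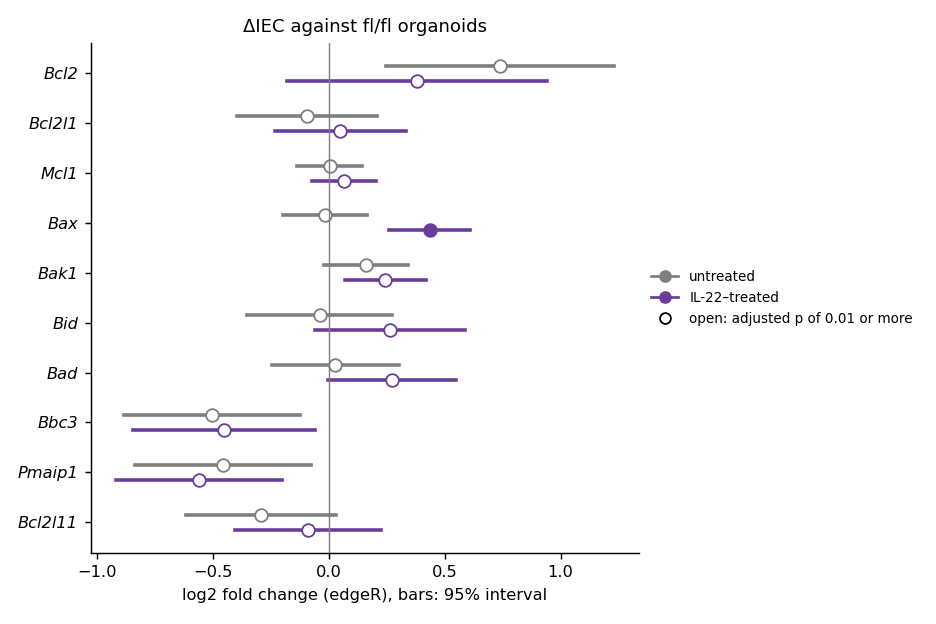
Log2 difference of each member between ΔIEC and fl/fl organoids, untreated (grey) and IL-22–treated (purple), from edgeR; bars are 95% intervals, and filled points have an adjusted p under 0.01. Bax in IL-22–treated organoids, at 0.43, is the filled point.

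The genes whose profile over the 16 cultures was closest to that of Mcl1 were Bcl10, Golm1 and Lars, with root mean square differences of 0.08, 0.09 and 0.09 in log2 CPM after centring each gene on its own mean. For Bak1 they were St14, Slc35c1 and Pdcd6, at 0.07, 0.09 and 0.09. These are descriptions over cultures that share lines and treatments.

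Of 15 further BCL-2 family genes, 9 were abundant enough to be tested, and 5 rose with IL-22 in fl/fl and 4 in ΔIEC organoids, with none lower. Among all genes tested, 10.6% and 9.83% were called higher. Bcl2l15, which is expressed in the gastrointestinal tract, had the largest change of these, from 3.18 ± 2.57 to 28.8 ± 10.4 CPM in fl/fl (log2 fold change 3.34, SE 0.39, adjusted p = 2.39e-06) and from 5.83 ± 3.07 to 31.4 ± 6.73 CPM in ΔIEC organoids (2.34, SE 0.34, adjusted p = 2.78e-05). Bok, an effector-like member, rose by 0.84 in fl/fl and 0.72 in ΔIEC organoids. Bnip3, a mitophagy receptor with a BH3-like motif, rose by 0.34 and 0.57. In fl/fl organoids Bcl2l2 (BCL-W, anti-apoptotic) rose by 0.50 and the BH3-only gene Bmf by 0.78, and in ΔIEC organoids the mitophagy receptor Bnip3l rose by 0.32. Bcl2l14 in fl/fl (0.38, adjusted p = 0.0325) and Bnip3l in fl/fl organoids (0.26, adjusted p = 0.0178) passed with the line as a block, at 0.000766 and 0.00260. Between genotypes, Bnip3 was lower in ΔIEC organoids both untreated (-0.61) and with IL-22 (-0.38), and Bcl2l2 (-0.53) and Bmf (-0.92) were lower with IL-22. For Bmf, 14.1 ± 1.83 CPM in IL-22–treated fl/fl cultures stood against 7.49 ± 0.585 CPM in ΔIEC cultures, and the interaction did not pass (-0.65, adjusted p = 0.651). The median log2 fold change of the 9 genes was 0.38 in fl/fl and 0.29 in ΔIEC organoids, beside -0.05 and -0.01 over all genes. Without the second fl/fl line, the calls on Bcl2l2 (adjusted p = 0.0301), Bmf (0.175) and Bok (0.0288) in fl/fl organoids were lost, and without the second ΔIEC line those on Bok (0.215), Bnip3 (0.0450) and Bnip3l (0.401) in ΔIEC organoids. Bnip3 in fl/fl organoids was lost without either fl/fl line or untreated replicate 1 or 4 or treated replicate 1 or 2 (up to 0.130). Single cultures also ended the calls on Bmf in fl/fl organoids (untreated replicate 4, treated replicates 2 and 3), on Bok in fl/fl (untreated replicate 4) and ΔIEC organoids (untreated replicates 1, 2 and 4, treated replicates 3 and 4), and on Bnip3l in ΔIEC organoids (all but treated replicate 2). Between IL-22–treated genotypes the calls on Bcl2l2 (0.0200), Bmf (0.0207) and Bnip3 (0.0453) were lost without the first ΔIEC line, among others. No difference of these 3 genes between genotypes was called in edgeR with the cultures of a line summed. Adjusted p was then 0.0336 untreated and 0.0542 with IL-22 for Bnip3, and with IL-22 0.0342 for Bcl2l2 and 0.0415 for Bmf.

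Bcl2a1d, of the anti-apoptotic A1 family, was not tested: 0 or 1 read was counted per untreated fl/fl and 0 to 3 per untreated ΔIEC culture, beside 3 to 9 and 5 to 19 with IL-22. Copies of A1 are near-identical, so these reads are uncertain, and Bcl2a1a, Bcl2a1b and Bcl2l10 had 0 reads in every culture. The BH3-only genes Bik and Hrk had at most 7 and 2 reads.

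Downstream of the family, Apaf1, the scaffold of the apoptosome, rose from 51.8 ± 4.81 to 99.9 ± 8.06 CPM in fl/fl (log2 fold change 0.96, SE 0.09, adjusted p = 1.10e-07) and from 59.8 ± 3.64 to 118 ± 8.05 CPM in ΔIEC organoids (0.98, SE 0.09, adjusted p = 6.84e-08). It kept its calls in both genotypes when any culture or line was left out. The initiator Casp9 fell by 0.43 with IL-22 in ΔIEC organoids (adjusted p = 0.00611), and was lower in ΔIEC than in fl/fl organoids under IL-22 (-0.42). Htra2, a protease that counteracts inhibitors of apoptosis, was higher in that comparison (0.50). The fall of Casp9 was not called without either ΔIEC line (0.156 and 0.0328), the first fl/fl line, untreated ΔIEC replicate 1, 2 or 4 or treated ΔIEC replicate 1 or 2, and its difference between IL-22–treated genotypes, like that of Htra2, not without the first ΔIEC line (0.101 and 0.0176), among others. Between IL-22–treated genotypes, summing the cultures of a line in edgeR left both uncalled, at an adjusted p of 0.0634 for Casp9 and 0.0201 for Htra2. Casp9 was not called by DESeq2 with IL-22 in ΔIEC organoids (adjusted p = 0.0200) or between IL-22–treated genotypes (0.0125). Nor was it in edgeR without a filter (0.0362 and 0.0378) or with only the groups compared (0.0149 and 0.0153). Between IL-22–treated genotypes limma-voom did not call it either (0.0274).

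Of 6 inhibitor of apoptosis genes, 2 rose with IL-22 in each genotype, and these were Birc3 (cIAP2) and Naip1. Among all genes tested, 10.6% in fl/fl and 9.83% in ΔIEC organoids were called higher. Birc3 went from 28.3 ± 0.708 to 61.3 ± 2.35 CPM in fl/fl and from 36.5 ± 7.66 to 74.9 ± 7.42 CPM in ΔIEC organoids, with log2 fold changes of 1.11 (adjusted p = 7.70e-07) and 1.07 (adjusted p = 7.71e-07). Naip1 rose by 0.93 and 0.95, the latter not called without the first ΔIEC line (adjusted p = 0.0107). Birc5 (survivin), which also acts in cell division, was higher in ΔIEC than in fl/fl organoids with IL-22 (1.04, adjusted p = 0.000113). It was not called in edgeR with the cultures of a line summed, 2 lines against 2 (adjusted p = 0.0240). The median of the 6 genes was 0.20 in fl/fl and 0.22 in ΔIEC organoids. Of 4 tested genes that act on the stability of MCL-1 protein, the ubiquitin ligase March5 rose by 0.29 and 0.43, and the other 3 did not pass (median 0.23 and 0.15 over the 4 genes). March5 lost its call in fl/fl organoids without any of 14 cultures or lines (adjusted p up to 0.170, without the second fl/fl line), and in ΔIEC organoids without the second ΔIEC line (0.0471).

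Upstream of the family, 2 of 14 genes of the p53 response rose with IL-22 in fl/fl and 3 in ΔIEC organoids, where 10.6% and 9.83% of all genes tested were called higher. A share of 2 in 14 is near that background. Mdm2, the ubiquitin ligase of p53, rose by 0.41 and 0.43 and Sesn2 by 0.47 and 0.55, and the death receptor gene Tnfrsf10b rose by 0.59 in ΔIEC organoids. Trp53inp1 and Zmat3 were lower in untreated ΔIEC organoids, by -0.65 and -0.58, and Trp53inp1 also with IL-22 (-0.79). The median of the 14 genes was 0.17 in fl/fl and 0.31 in ΔIEC organoids. Without the second line of the genotype, adjusted p rose to 0.0443 and 0.0382 for Mdm2, to 0.255 and 0.0447 for Sesn2 and to 0.173 for Tnfrsf10b, and the last 2 genes lost their calls without some single cultures too. In untreated organoids Trp53inp1 (0.0530) and Zmat3 (0.0546) were no longer called without the first fl/fl line, among others. Neither gene was called between genotypes in edgeR with the cultures of a line summed. Adjusted p was then 0.0786 untreated and 0.0231 with IL-22 for Trp53inp1, and 0.0710 untreated for Zmat3.

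Of 8 genes of the ER stress death branch, which can induce Bbc3, Pmaip1 and Bcl2l11, 6 rose with IL-22 in fl/fl and 4 in ΔIEC organoids. Of all genes tested, 10.6% and 9.83% were called higher in these comparisons. In the interaction 0 of the 8 genes passed, so these counts do not show that the genotypes responded differently. Atf4, Trib3, Ppp1r15a and Chac1 rose in both, Atf4 by 0.57 (adjusted p = 1.06e-06) and 0.64 (adjusted p = 2.42e-07). Ddit3 (CHOP) was lower in ΔIEC than in fl/fl organoids, by -0.98 untreated (adjusted p = 0.00160) and -1.19 with IL-22 (adjusted p = 8.52e-05), at 75.7 ± 1.69 CPM in IL-22–treated fl/fl against 32.8 ± 13.5 CPM in ΔIEC cultures. In all, 2 of the 8 genes were lower in untreated and 5 of 8 in IL-22–treated ΔIEC organoids, and none was higher. Of all genes tested, 5.98% and 9.84% were called lower in these comparisons. The median of the 8 genes was 0.80 with IL-22 in fl/fl and 0.55 in ΔIEC cultures. The untreated difference of Ddit3 was not called without the first fl/fl line (adjusted p = 0.0486), and the rise of Chac1 in ΔIEC organoids not without the second ΔIEC line (0.121). Summing the cultures of a line in edgeR left Ddit3 uncalled between genotypes, untreated (adjusted p = 0.0603) and with IL-22 (0.0152).

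Of STAT3 and its targets, a list of 9 chosen with earlier results of these data known, 8 rose with IL-22 in each genotype. Socs3 rose by 4.53 in fl/fl and 4.31 in ΔIEC organoids on the log2 scale, with medians over the 9 genes of 1.58 and 1.81. Among all genes tested, 10.6% and 9.83% were called higher. Of 5 tested transcription factors that act on BH3-only genes, E2f1 fell by 0.84 and 0.72 with IL-22 (median -0.14 and -0.05 over the 5 factors), Jun rose by 0.51 in fl/fl organoids, and Foxo3 was lower in untreated ΔIEC organoids (-0.39). These calls were lost in some leave-outs, with adjusted p up to 0.0387 for E2f1 in fl/fl and 0.136 in ΔIEC organoids (without the second line of each), 0.0675 for Jun (without the first fl/fl line) and 0.0521 for Foxo3 (without the first ΔIEC line). The difference of Foxo3 was also not called in edgeR with the cultures of a line summed (adjusted p = 0.0941). Over the lists, up to 4 genes each with the smallest p per comparison, and all called BCL-2 family genes, were refitted without each culture or line. The call was lost in at least 1 such fit by 11 of 22 genes with IL-22 in fl/fl, 12 of 23 in ΔIEC organoids, 7 of 8 between untreated and 7 of 14 between IL-22–treated genotypes. Apaf1, Birc3 and Bcl2l15 kept it with IL-22 in both genotypes in 20 of 20 fits.

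**Figure D5:**
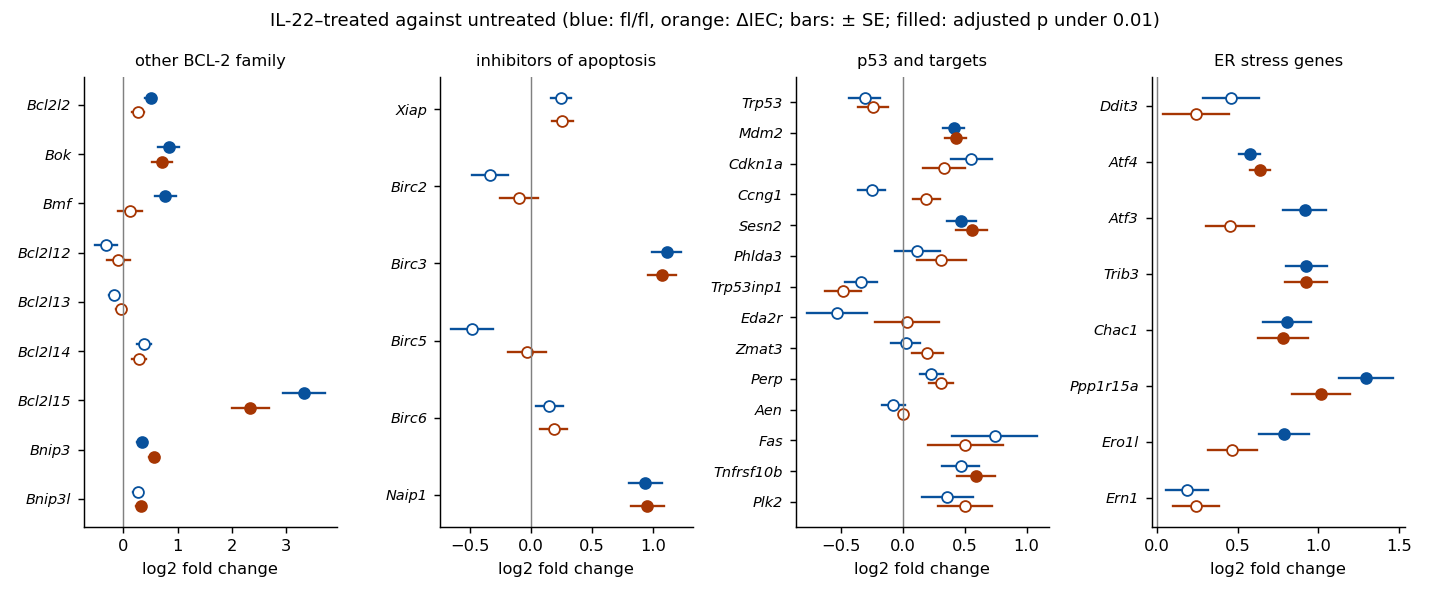
Log2 fold change with IL-22 of the tested genes in 4 lists around the BCL-2 family, fl/fl in blue and ΔIEC in orange; bars are ± SE, and filled points have an adjusted p under 0.01. Bcl2l15 had the largest change, and Birc3 and Naip1 rose by about the same amount in both genotypes.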

How the data were processed

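The measurements were RNA-seq read counts of 16 organoid cultures in 4 groups of 4, deposited by the authors as 1 table of raw counts per gene. Per the labels and the study's methods, reads were trimmed with cutadapt, aligned to mm10 with TopHat2 and counted per gene with HTSeq. Tool versions, the annotation release and the strand setting of the counting are not given in the sources used here. The labels and the methods name different TruSeq kits, and that of the methods is stranded. Per culture, 0.740% to 1.13% of all counts, including those on no gene, were marked ambiguous. Where a library is unstranded, reads of overlapping genes cannot be told apart. Of 49585 gene IDs, 49326 (99.5%) were matched without version to GENCODE M21, from which symbols, positions in GRCm38 and exon lengths were taken. Rows that name no gene stayed out of the library sizes. No column of per-sample values was left without a sample (0 columns).

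Counts were tested with edgeR 4.0.16 in R 4.3.3 (quasi-likelihood F test, TMM scaling, filterByExpr, 1 mean per group, all 16 cultures in 1 fit), with Benjamini-Hochberg adjustment over 12559 genes and an adjusted p under 0.01 as the threshold. The study's methods give the number 0.01 for a p-value of the interaction without saying that it was adjusted, and give none for the pairwise comparisons. The 4 pairwise comparisons and their interaction were tested. The common biological coefficient of variation was 0.115, and total counts on genes of 2135000 to 5574860 make a gene near 1 CPM a matter of a few reads, so precision is lowest for Bcl2. An exact permutation test of 4 against 4 cultures cannot go below p = 0.0286. CPM are per 1000000 counts of TMM-scaled library size, and log2 fold changes come from the fit. The replicate number was read from the labels, which give 2 lines per genotype: cultures of the same line deviated together from their group means in fl/fl (correlations 0.26 to 0.44) and in ΔIEC (0.06 to 0.32). Correlations between different lines were -0.43 to -0.22 and -0.35 to -0.08. Centring on a mean of 2 lines makes these negative once those within lines are positive, so they add no separate evidence. Lines paired the IL-22 comparisons as a block in an alternative fit.

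Alternatives were DESeq2 1.42.0, its size factors in edgeR (RLE), no filter, at least 10 counts in every culture, adjusted p under 0.05, only the groups compared, cultures of a line summed, limma-voom 3.58.1 with a correlation within lines, the line block, and leaving out each culture and each line. The method was tested on simulated counts. These were drawn independently for each culture without an effect of the line, so they cannot show error rates for cultures that share a line. Members, gene lists, alternatives and the rule for named genes (all 10 members, and in each list around them up to 4 called genes with the smallest p per comparison) were chosen with earlier results of these data known. Upstream sequences are from RefSeq. Some genes of the lists are not reported here.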

Additional observations from a re-analysis of the deposited data

Results flagged for a closer look

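Among 40 combinations of member and group, 1 held a culture far from the other 3. Bid was counted at 31.1 CPM in untreated fl/fl replicate 2, and the nearest culture of that group was at 22.8 CPM, a gap of 0.857 of the group's range above the 95% critical value of Dixon's test for 4 samples. Chance alone marks about 1 in 20 groups.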

How the results depend on the processing

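The numbers of the 10 members called were compared across the alternatives, beside 3 (IL-22 in fl/fl), 5 (IL-22 in ΔIEC), 0 (interaction), 0 (untreated genotypes) and 1 (IL-22–treated genotypes). With the organoid line as a block, the pairing that the labels give, 4 members were called in fl/fl and 6 in ΔIEC organoids, Bcl2l1 being the addition in each, and 0 in the interaction, and no other call on the members changed. With cultures of a line summed the numbers were 0, 1, 0, 0 and 0. DESeq2 called 3 members with IL-22 in ΔIEC and 2 between IL-22–treated genotypes. The fit of only the groups compared called 2 in each of these. Without a filter 1 member was called between untreated and 2 between IL-22–treated genotypes, limma-voom called 2 in the latter, and an adjusted p under 0.05 called 1 and 3. Leaving out each culture or line gave 1 to 3, 1 to 5, 0 to 0, 0 to 1 and 0 to 2 members. Under RLE scaling, 1 member in place of 2 was separate between untreated genotypes. None of the 9 called member results changed sign under any alternative run, and 19 of 41 uncalled ones did under at least 1. The causes were not tested. Over all genes, 1329 rose and 1279 fell with IL-22 in fl/fl and 1234 and 961 in ΔIEC organoids, with 475 and 751 higher and lower between untreated and 1245 and 1236 between IL-22–treated genotypes. Summing lines left 356 and 187, 385 and 250, 3 and 7, and 56 and 132. An adjusted p under 0.05 gave 1957 and 2100, 1901 and 1599, 1121 and 1438, and 2116 and 2052. Between untreated genotypes limma-voom called 271 and 506 and the fit without a filter 748 and 1092, and in the interaction 31 and 49 genes passed without a filter, 4 and 11 with DESeq2, 2 and 3 with limma-voom and 15 and 41 with the block, against 1 and 1. Depth limits Bcl2, with 10 to 47 reads per culture.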
